A study of Mus musculus with 12 samples.

Results

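Vascular endothelium was followed in whole-kidney RNA-Seq through 10 genes chosen by name (*Apold1*, *Edn1*, *Nos3*, *Plvap*, *Emcn*, *Cdh5*, *Pecam1*, *Kdr*, *Flt1* and *Tek*), out of 55401 gene identifiers in the tables. All 10 were found, and all 10 were among the 14159 genes that passed the expression filter and were tested. These genes were chosen with earlier results of these data known, so their counts beside those of all genes are not a test. Male C57BL6 mice, 8 weeks old, received 1 intraperitoneal dose of vehicle (15% 2-hydroxypropyl-beta-cyclodextrin; 6 mice) or of SK-124 at 40 mg/kg in that vehicle (6 mice). SK-124 is a small-molecule inhibitor of the salt-inducible kinases SIK2 and SIK3, which sit downstream of the parathyroid hormone receptor and are switched off when cAMP rises. Each kidney gave 1 library on the BGISEQ500 platform. The comparison asked how acute SIK2/SIK3 inhibition alters kidney transcripts, here those of the vessel wall.

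Kidney endothelium includes fenestrated glomerular and peritubular capillaries, arterioles and the vasa recta. VEGF made by podocytes and tubules acts on endothelial VEGF receptors, angiopoietin acts on the receptor encoded by *Tek*, and both maintain these capillaries. Endothelial cells in turn release endothelin, which constricts, and nitric oxide, which dilates. Some endothelial transcripts are markers of the cell at rest, such as those for junction and surface proteins, while others, such as *Apold1* and *Edn1*, are known to respond rapidly to stimuli.

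SK-124 moved these genes in opposite directions. *Apold1*, an early-response gene of endothelial cells, rose 2.86-fold, *Edn1*, the endothelin-1 precursor, rose 1.83-fold and *Nos3*, endothelial nitric oxide synthase, rose 1.31-fold. *Kdr*, the main signalling receptor for VEGF-A, fell to 0.554 of the vehicle level and *Tek*, the angiopoietin receptor Tie2, to 0.634. The other 5 genes did not pass the test. Higher levels thus passed for 3 of 10 genes and lower levels for 2 of 10 (edgeR's quasi-likelihood test, Benjamini-Hochberg FDR under 0.05 over all genes tested), where 10.8% of all genes tested were called higher, 13.5% lower and 24.4% either way. Groups did not overlap, taking every SK-124 mouse against every vehicle mouse, for 1 gene that was higher (*Edn1*) and for 2 that were lower (*Kdr* and *Tek*), against 6.32% of all genes for higher, 6.65% for lower and 13.0% for either direction. A log2 fold change past 1 in size together with the FDR was met by *Apold1* alone, and by 3.04% of all genes tested. In bulk tissue, fewer cells of a type and less RNA per cell cannot be told apart.

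**Figure D1:**
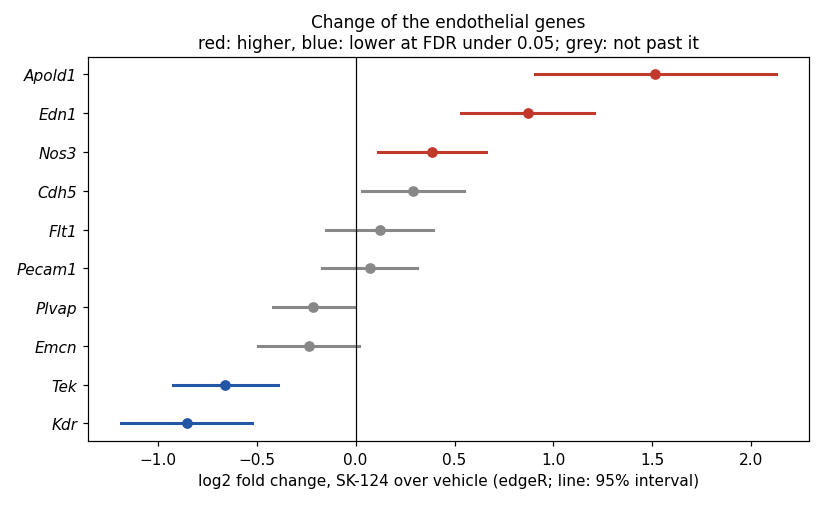
Log2 fold change of the 10 endothelial genes (x axis, SK-124 over vehicle, edgeR, n = 6 mice per group), with the 95% interval as a line. *Apold1* at 1.51, *Edn1* at 0.87 and *Nos3* at 0.39 lie to the right in red, *Tek* at -0.66 and *Kdr* at -0.85 lie to the left in blue, and the 5 genes in grey did not pass the test.

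Upstream sequence was read for the members from a RefSeq table on GRCm38.p6, which held windows from 250 bases before to 50 bases after the start for 6 of 10 members (*Apold1*, *Edn1*, *Kdr*, *Flt1*, *Tek* and *Emcn*). *Nos3*, *Plvap*, *Cdh5* and *Pecam1* had no entry. Windows were searched on both strands for 7 motifs, chosen after the fold changes were known: the CRE bound by CREB-family factors (TGACGTCA) and its half-site (TGACG, also part of the full site), the AP-1 site (TGANTCA), a forkhead site (TGTTTAC), the TATA core (TATAAA), the GC box (GGGCGG) and an ETS core (CCGGAA). A match describes letters and is not a binding site. Of the genes that passed, both that rose and have an entry (*Apold1* and *Edn1*) and both that fell (*Kdr* and *Tek*) are shown with *Flt1*, the VEGF receptor that did not pass, 5′ to 3′ on the gene's strand, with motif matches in capitals. *Apold1* is given as 30 bases from 54 to 25 bases before its start (chr6:134981947-134981976, plus strand), *Edn1* as the last 120 bases before its start (chr13:42301356-42301475, plus strand), *Kdr* as the last 180 (chr5:75978456-75978635, minus strand), *Tek* as the last 120 (chr4:94739169-94739288, plus strand) and *Flt1* as the last 90 (chr5:147726012-147726101, minus strand).
Apold1: gcCGTCAttggctcctgggagcTATAAAgt
Edn1: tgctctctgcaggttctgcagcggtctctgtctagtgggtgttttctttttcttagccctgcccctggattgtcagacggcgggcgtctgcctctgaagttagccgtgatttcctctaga
Kdr: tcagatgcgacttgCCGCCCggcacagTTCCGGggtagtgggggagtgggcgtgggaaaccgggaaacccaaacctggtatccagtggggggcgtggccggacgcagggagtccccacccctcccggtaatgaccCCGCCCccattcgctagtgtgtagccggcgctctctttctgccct
Tek: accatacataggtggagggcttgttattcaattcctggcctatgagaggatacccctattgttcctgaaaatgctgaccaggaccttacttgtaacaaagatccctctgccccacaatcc
Flt1: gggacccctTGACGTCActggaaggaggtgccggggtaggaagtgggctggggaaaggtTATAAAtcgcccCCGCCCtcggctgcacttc
The *Apold1* stretch holds the half-site on the opposite strand, beginning 52 bases before the start, and a TATA core beginning 32 bases before it. Of 32851 windows in the table, 20.8% held the half-site and 13.6% the TATA core. The *Flt1* stretch holds a full CRE beginning 81 bases before the start, a motif found in 1.79% of all windows, together with a TATA core at 31 bases and a GC box at 19. In *Kdr* the capitals mark GC boxes beginning 166 and 45 bases before the start and an ETS core at 153 bases, motifs present in 35.7% and 14.9% of all windows. None of the 7 motifs matched in the windows of *Edn1*, *Tek* or *Emcn*. The AP-1 and forkhead letters, present in 7.81% and 3.65% of all windows, matched in 0 of the 6. These windows follow RefSeq starts, and that of *Apold1*, at 134982001, lies downstream of the 5′ end of the GENCODE M21 gene at 134981718.

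Libraries were of similar depth, with 19244227 to 19771802 expected counts per mouse. The 10 most abundant genes took 39.9% to 43.2% of the counts in vehicle mice, 44.4% to 46.8% in SK-124 mice 1 to 3 and 38.6% to 40.2% in SK-124 mice 4 to 6. No label names a batch, but most of the endothelial genes were also higher in mice 4 to 6 than in mice 1 to 3 of the same group, so the change within each trio is given for each of the 10 endothelial genes. Leaving out SK-124 mice 1 to 3 gave 4 endothelial genes higher and 2 lower, and leaving out SK-124 mice 4 to 6 gave 2 higher and 2 lower, with *Apold1*, *Edn1*, *Kdr* and *Tek* called in both. *Slc34a1*, *Lrp2* and the other proximal tubule markers, which define the bulk of the cortex, were present in every kidney, with a summed level of 6907 to 8836 CPM over 7 genes.

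Levels between genes were compared on the TPM scale, which corrects for gene length. In vehicle mice *Plvap*, which forms the diaphragms of fenestrated capillaries, was highest at 81.5 ± 9.95 TPM (SD, n = 6), followed by *Emcn*, an endothelial surface sialomucin, at 40.5 ± 5.57 TPM. A middle group of *Pecam1* (10.1 TPM), *Cdh5* (7.51), *Kdr* (4.67), *Flt1* (4.59) and *Tek* (4.38) came next, and *Nos3* (0.983), *Edn1* (0.643) and *Apold1* (0.383) were lowest. *Plvap* stood 213 times above *Apold1*. Ranges over the 6 mice separated *Plvap* from *Emcn*, *Emcn* from *Pecam1* and *Tek* from *Nos3*, while every other pair of neighbours in this order overlapped. After SK-124 the TPM means were 64.3 for *Plvap*, 31.4 for *Emcn*, 9.62 for *Pecam1*, 8.08 for *Cdh5*, 4.51 for *Flt1*, 2.46 for *Tek*, 2.32 for *Kdr*, 1.17 for *Nos3*, 1.07 for *Edn1* and 0.983 for *Apold1*. The 3 genes called higher by edgeR were thus the 3 lowest in vehicle kidneys, and they stayed at the bottom of the order. *Nos3* did not pass when TPM were fitted with limma. Changes below are on the scale of TMM-normalized CPM (counts scaled to a common library size).

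*Apold1* (ENSMUSG00000090698.2, 2 exons, chr6:134981718-134986836 on the plus strand, GRCm38) overlaps no other annotated gene. Its encoded protein, apolipoprotein L domain containing 1, is an endothelial protein linked to the response to stress. Vehicle mice ranged from 0.756 to 3.23 CPM with a median of 0.956, which are 15 to 68 expected counts. SK-124 mice ranged from 2.96 to 5.35 CPM with a median of 3.52, or 59 to 108 expected counts. A single vehicle mouse, number 5 at 3.23 CPM, lay above the lowest SK-124 mouse, also numbered 5, while the other vehicle mice reached at most 1.47 CPM. Means were 1.37 ± 0.944 and 3.94 ± 0.942 CPM (SD, n = 6 each). This is a log2 fold change of 1.51 (SE 0.29, 95% interval 0.91 to 2.12, FDR = 0.000828 by edgeR). A two-sided exact permutation test of the group means gave p = 0.00433, where 0.00216 is the smallest value that 6 mice against 6 allow. Without vehicle mouse 5 the log2 fold change was 1.98 (edgeR FDR = 3.12e-06). It was 1.94 in mice 1 to 3 (edgeR FDR = 9.93e-05) and 1.26 in mice 4 to 6, where the call was lost (edgeR FDR = 0.0566).

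*Edn1* (ENSMUSG00000021367.8, 5 exons, chr13:42301476-42307990, plus strand) encodes the precursor of endothelin-1, a vasoconstrictor peptide that is also made in collecting duct cells. Vehicle mice held 1.04 to 1.80 CPM with a median of 1.25, from 21 to 38 expected counts. SK-124 mice held 2.16 to 2.92 CPM with a median of 2.42, from 37 to 59 expected counts, and all 6 exceeded all 6 vehicle mice. On the log2 scale the change was 0.87 (SE 0.16, 95% interval 0.53 to 1.21, FDR = 0.000596 by edgeR; exact permutation p = 0.00216). It was 0.94 in mice 1 to 3 and 0.83 in mice 4 to 6, past the FDR in both. An antisense gene, *Gm47118*, overlaps *Edn1*, and use of strand in the counting is not given in the sources used here, so their reads cannot be told apart.

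*Nos3* (ENSMUSG00000028978.12, 26 exons, chr5:24364810-24384474, plus strand) makes nitric oxide in endothelial cells. Vehicle mice ranged from 2.67 to 4.80 CPM (median 4.47) and SK-124 mice from 4.62 to 5.97 CPM (median 5.82). SK-124 mice 2 and 3 fell within the vehicle range and the other 4 lay above it. Its log2 fold change was 0.39 (SE 0.13, 95% interval 0.11 to 0.66, FDR = 0.0376 by edgeR; exact permutation p = 0.0130). Its call was lost in 14 of 25 alternative settings. These include leaving out vehicle mouse 1, 2 or 6 or SK-124 mouse 1, 4, 5 or 6 (edgeR FDR from 0.0544 to 0.0747), and the log2 fold change was lowest among them, 0.29, without vehicle mouse 1. The call was also lost with scaling by library totals (0.28, edgeR FDR = 0.165). On TPM the change was smaller, 0.13 with log2(TPM + 1) and 0.23 with log2(TPM + 0.1) (limma FDR = 0.337 and 0.3675). Neither trio passed alone, with 0.43 in mice 1 to 3 and 0.37 in mice 4 to 6 (edgeR FDR = 0.254 and 0.0520). *Atg9b* and the antisense gene *Gm15587* overlap *Nos3* on the opposite strand.

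**Figure D2:**
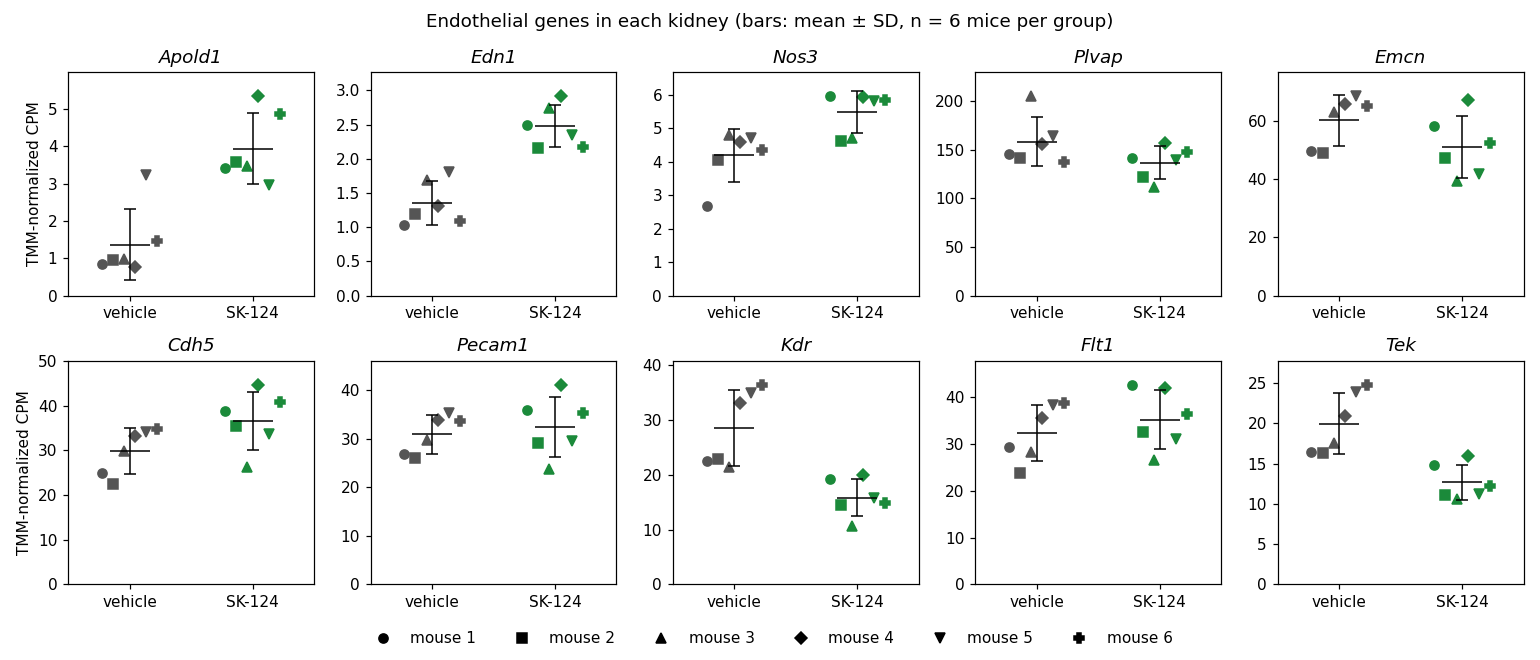
TMM-normalized CPM (y axis, linear from 0, a scale per gene) of the 10 endothelial genes in each vehicle (grey) and SK-124 (green) mouse, with the mean and SD of the 6 mice as black bars and 1 symbol per mouse number. *Edn1* is higher and *Kdr* and *Tek* are lower in every SK-124 mouse than in any vehicle mouse, and for *Apold1* vehicle mouse 5 (3.23 CPM) is the point that reaches the SK-124 range.

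*Kdr* (ENSMUSG00000062960.10, 30 exons, chr5:75932827-75978458, minus strand) encodes VEGFR2, through which VEGF-A drives endothelial survival, growth and permeability. Vehicle mice ranged from 21.5 to 36.4 CPM with a median of 28.0, and SK-124 mice from 10.7 to 19.9 CPM with a median of 15.3. No SK-124 mouse reached the lowest vehicle mouse. The log2 fold change was -0.85 (SE 0.16, 95% interval -1.19 to -0.52, FDR = 0.000647 by edgeR; exact permutation p = 0.00216). Vehicle mice fell into a lower trio, mice 1 to 3 at 21.5 to 22.8 CPM, and a higher one, mice 4 to 6 at 33.1 to 36.4 CPM. SK-124 mice 1 to 3 held 10.7 to 19.2 CPM and mice 4 to 6 held 14.8 to 19.9 CPM, below the vehicle trio of the same numbers in both. Within trios, the change on the log2 scale was -0.57 in mice 1 to 3, where the call was lost with 3 mice a group (edgeR FDR = 0.0581), and -1.05 in mice 4 to 6 (edgeR FDR = 0.000149).

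*Tek* (ENSMUSG00000006386.15, 23 exons, chr4:94739289-94874976, plus strand) encodes Tie2, whose activation by angiopoietin-1 keeps capillaries quiescent. Its vehicle values were 16.3 to 24.8 CPM with a median of 19.2, and its SK-124 values 10.6 to 15.99 CPM with a median of 11.7. Groups were separated, although the gap between SK-124 mouse 4 at 15.99 CPM and vehicle mouse 2 at 16.3 CPM was narrow. The log2 fold change was -0.66 (SE 0.13, 95% interval -0.92 to -0.39, FDR = 0.000843 by edgeR; exact permutation p = 0.00216). By trio it was -0.44 in mice 1 to 3 (edgeR FDR = 0.0611) and -0.82 in mice 4 to 6 (edgeR FDR = 0.00194).

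*Flt1* (ENSMUSG00000029648.13, 30 exons, chr5:147561604-147726011, minus strand) encodes VEGFR1, which binds VEGF-A tightly and, as a soluble form, acts as a decoy. It did not follow *Kdr*: vehicle mice held 23.8 to 38.8 CPM (median 32.5) and SK-124 mice 26.6 to 42.7 CPM (median 34.5), with ranges that overlapped almost wholly. The log2 fold change was 0.12 (95% interval -0.15 to 0.39, FDR = 0.540 by edgeR), so a fall of the size seen for *Kdr* lies outside its interval. It was 0.34 in mice 1 to 3 and -0.04 in mice 4 to 6, and passed in neither. RSEM also gives each gene a length averaged over its isoforms by their estimated share. For *Flt1* this length was 6741 ± 9.66 bases in vehicle and 6701 ± 44.3 bases in SK-124 mice (exact permutation p = 0.0238), which did not pass the adjustment over 12025 genes whose length varied (FDR = 0.939 by limma; 0.0582% of those genes were called). For *Emcn*, *Cdh5*, *Pecam1*, *Kdr* and *Tek* the length differed by at most 0.04 on the log2 scale with no call, and *Apold1*, *Edn1*, *Nos3* and *Plvap* had 1 fixed length in all mice.

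Markers of junctions and surface did not pass the test. *Pecam1* (ENSMUSG00000020717.19, chr11:106654217-106750628, minus strand), the adhesion molecule CD31, was at 25.9 to 35.2 CPM (median 31.7) in vehicle and 23.6 to 41.1 CPM (median 32.4) in SK-124 mice. Its log2 fold change was 0.07 (95% interval -0.17 to 0.31, FDR = 0.697 by edgeR), the smallest of the 10, with 0.12 in mice 1 to 3 and 0.05 in mice 4 to 6. *Cdh5* (ENSMUSG00000031871.9, chr8:104101625-104144511, plus strand), the junction protein VE-cadherin, was at 22.5 to 34.7 CPM (median 31.5) and 26.3 to 44.7 CPM (median 37.1), with a log2 fold change of 0.29 (95% interval 0.03 to 0.55, FDR = 0.0978 by edgeR). *Cdh5* passed in 3 of 25 alternative settings, which were without SK-124 mouse 3 (log2 fold change 0.37, edgeR FDR = 0.0236), without SK-124 mice 1 to 3 (0.42), and with a term for mice 1 to 3 against 4 to 6 (0.30). In mice 1 to 3 alone it was at 0.39 and in mice 4 to 6 alone at 0.23, and passed in neither.

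*Emcn* (ENSMUSG00000054690.17, chr3:137341067-137432185, plus strand) was at 48.7 to 68.5 CPM (median 64.0) in vehicle and 39.2 to 67.2 CPM (median 49.6) in SK-124 mice. The log2 fold change was -0.24 (95% interval -0.49 to 0.02, FDR = 0.176 by edgeR), and it passed only when SK-124 mouse 4 was left out (-0.33, edgeR FDR = 0.0396). It was -0.14 in mice 1 to 3 and -0.30 in mice 4 to 6. *Plvap* (ENSMUSG00000034845.6, chr8:71497765-71511752, minus strand) was at 137 to 205 CPM (median 151) and 112 to 157 CPM (median 140.3), with a log2 fold change of -0.21 (95% interval -0.42 to -0.01, FDR = 0.126 by edgeR). *Plvap* passed only under scaling by library totals, where the median of all genes shifted by -0.12 and *Plvap* stood at -0.32 (edgeR FDR = 0.0369). The fitted difference of *Plvap* lay mainly in mice 1 to 3, at -0.37, against -0.04 in mice 4 to 6, and passed in neither. The 95% intervals of *Cdh5* and *Plvap* leave out 0 because they carry no adjustment for the number of genes tested. *Gtpbp3* overlaps *Plvap* and the antisense gene *Gm29682* overlaps *Cdh5*, each on the opposite strand, with use of strand in the counting not given.

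Expression relative to *Pecam1* in the same library was computed for the other 9 genes, a measure chosen after the values above were seen. Within groups the 4 markers and 3 receptors moved together from mouse to mouse (median Pearson r of 0.877 over 21 gene pairs, from 0.177 to 0.958, on deviations from the group mean in 12 mice, where both genes of a pair share library and scaling). The corresponding median with these 7 genes was 0.534 for *Apold1*, 0.264 for *Edn1* and 0.585 for *Nos3*. On the log2 scale the ratio to *Pecam1* differed between SK-124 and vehicle by -0.91 ± 0.10 (SE) for *Kdr* and by -0.71 ± 0.07 for *Tek*. It differed by 1.64 ± 0.30 for *Apold1* and by 0.84 ± 0.18 for *Edn1*. All 4 ratios separated the groups without overlap, each at the smallest exact permutation p of 0.00216. The share of all genes tested whose ratio to *Pecam1* separates the groups was not computed. The separated ratios here and below therefore have no background to be read against.

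Smaller shifts against *Pecam1* were also separated for *Emcn* (-0.31 ± 0.05) and *Cdh5* (0.23 ± 0.04), again with an exact permutation p of 0.00216 for each. In CPM itself both genes overlapped between the groups and did not pass the test. Computed from TPM, the *Emcn* and *Cdh5* ratios overlapped between groups (exact permutation p = 0.00866 and 0.0195), as did that of *Apold1* (exact permutation p = 0.00433), while *Edn1*, *Kdr* and *Tek* remained separated. *Nos3* differed by 0.34 ± 0.13 (exact permutation p = 0.0152), *Plvap* by -0.27 ± 0.12 (exact permutation p = 0.0541) and *Flt1* by 0.06 ± 0.06 (exact permutation p = 0.316). These p-values are not adjusted for the 9 ratios.

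**Figure D3:**
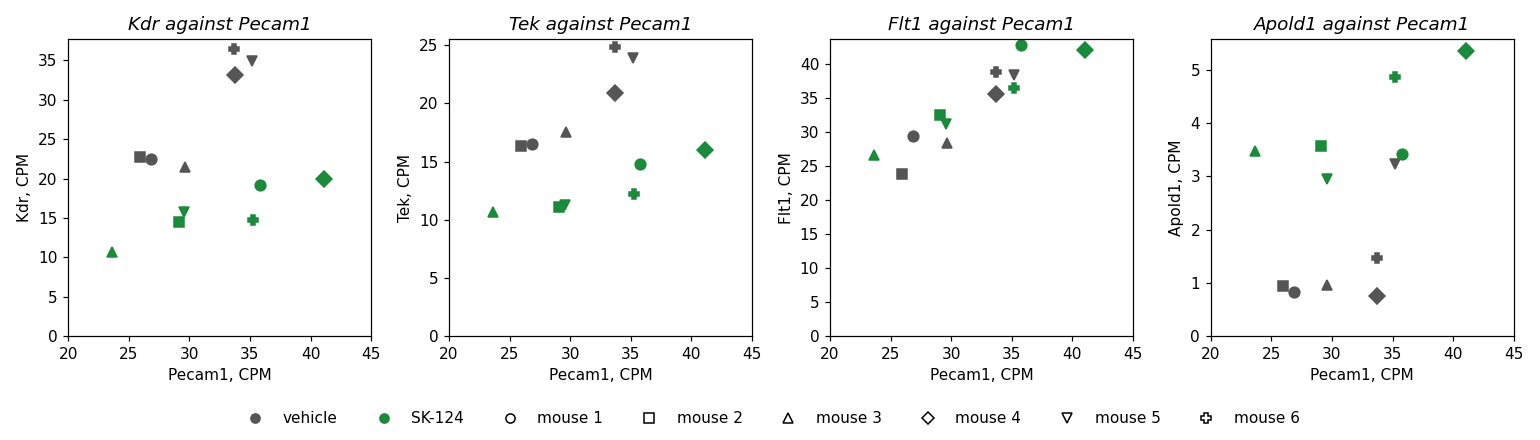
*Kdr*, *Tek*, *Flt1* and *Apold1* (y axes, TMM-normalized CPM) against *Pecam1* in the same mouse (x axis, CPM, from 20), 1 symbol per mouse number, vehicle in grey and SK-124 in green. For *Kdr* and *Tek* the SK-124 mice lie below the vehicle mice at every *Pecam1* level, for *Flt1* both groups run along the same course, and for *Apold1* the SK-124 mice lie above the vehicle mice other than mouse 5.

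The genes whose deviations from the group mean were most like those of *Apold1*, among 13007 genes whose mean was 1 CPM or more, were *Kdelc2* (Pearson r = 0.918 over 12 mice, Spearman rho 0.818), *Fndc1* (0.866 and 0.608), *AA986860* (0.858 and 0.734), *Adcy3* (0.849 and 0.797) and *Cebpd* (0.848 and 0.601). Without vehicle mouse 5, Pearson r was 0.876, 0.579, 0.806, 0.692 and 0.630 in that order. Ranked without that mouse, *Alpk1* (0.949), *Rsph3a* (0.899), *Kdelc2* (0.876), *Camk1d* (0.861) and *Mfng* (0.858) took the top places. Over all 12 mice their Pearson r was 0.775, 0.0103, 0.918, 0.819 and 0.717 in that order. *Kdelc2* alone was in both sets, so the other places in each set depend on whether vehicle mouse 5 is included. No p is attached, since the genes were picked for their r. Of the endothelial members, *Tek* came closest to *Apold1* by Pearson r (0.619, Spearman rho 0.559) and *Cdh5* by Spearman rho (0.608, Pearson r 0.534).

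Further endothelial markers were called about as often as genes at large. Of 20 tested, 2 rose, 4 fell and 14 did not pass, beside 10.8% of all genes called higher and 13.5% lower, with a median log2 fold change of -0.24, beside -0.01 over all genes tested. *Sox18*, a transcription factor of vessel development, was at 13.2 to 19.3 CPM in vehicle and 4.82 to 10.5 CPM in SK-124 mice (log2 fold change -0.91, edgeR FDR = 0.000127). *Ehd3*, a marker of glomerular endothelium, fell by 0.87 on the log2 scale (edgeR FDR = 2.73e-05) and *Clec14a*, a surface glycoprotein, by 0.81 (edgeR FDR = 0.000259). All 3 were separated between the groups. *Gpihbp1*, which carries lipoprotein lipase to the capillary lumen, rose by 0.89 (edgeR FDR = 0.000653), from 4.01 to 5.69 CPM in vehicle to 5.77 to 13.1 CPM in SK-124 mice. *Esam*, a tight-junction adhesion molecule, rose by 0.57 and *Eng*, a TGF-beta co-receptor, fell by 0.28 (edgeR FDR = 0.000358 and 0.0496), the latter at the edge of the threshold. *Tie1*, *Robo4*, *Ptprb*, *Cd34*, *Vwf* and *Erg* were among the 14 that did not pass.

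Genes of endothelial activation and of the response to flow had 7 higher and 2 lower of 10 tested, beside 10.8% and 13.5% of all genes, and a median log2 fold change of 0.59. This list, like the other gene lists here, was chosen with earlier results of these data known. Its count beside the share of all genes is therefore not a test of the list. *Klf2*, a flow-responsive transcription factor of endothelium, rose from 10.8 ± 2.50 to 21.4 ± 4.02 CPM (SD, n = 6; log2 fold change 0.99, edgeR FDR = 8.50e-05). *Thbd*, the anticoagulant receptor thrombomodulin and a target of *Klf2*, rose from 10.9 to 20.3 CPM (0.89, edgeR FDR = 0.000175), and *Icam1*, a leukocyte adhesion molecule, from 13.3 to 21.6 CPM (0.70, edgeR FDR = 7.60e-05). The others that passed higher were *Rhob*, *Vcam1*, *Klf4* and *Adamts1*. *Esm1*, a proteoglycan of VEGF-stimulated endothelial cells, fell from 9.30 to 4.54 CPM (-1.04, edgeR FDR = 0.000297). *Pdgfb*, through which endothelium recruits pericytes, fell from 15.8 to 9.76 CPM with no overlap (-0.69, edgeR FDR = 7.83e-05). *Sele* and *Selp*, the endothelial selectins, were too low to be tested. Several of these genes are also expressed by tubule cells or leukocytes.

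The VEGF and angiopoietin system beyond *Kdr*, *Flt1* and *Tek* held 0 genes that passed higher and 4 lower of 10 tested, beside 10.8% and 13.5% of all genes, with a median log2 fold change of -0.17. *Nrp1*, a co-receptor that enhances VEGF signalling through VEGFR2, fell from 22.3 ± 4.85 to 11.7 ± 1.78 CPM with no overlap (log2 fold change -0.93, edgeR FDR = 6.92e-05). The ligands changed less, *Angpt1* by -0.32 (edgeR FDR = 0.0244), *Vegfb* by -0.20 (edgeR FDR = 0.0290) and *Vegfa* by -0.15, from 142.6 to 128.6 CPM (edgeR FDR = 0.0406). *Angpt2*, *Nrp2*, *Flt4*, *Tie1*, *Vegfc* and *Vegfd* did not pass.

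For the endothelin system beyond *Edn1*, 4 genes were tested, of which 1 was higher and 2 lower, beside 10.8% and 13.5% of all genes. *Ednrb*, the receptor that clears endothelin-1 and mediates nitric oxide release in endothelium, rose from 9.66 ± 1.53 to 24.4 ± 4.51 CPM (SD, n = 6). All 6 SK-124 mice (18.5 to 29.4 CPM) lay above all 6 vehicle mice (7.98 to 11.5 CPM), with a log2 fold change of 1.33 (edgeR FDR = 4.58e-07). *Ece1*, which cleaves the precursor to active endothelin, fell by 0.32 on the log2 scale (edgeR FDR = 0.00308) and *Edn3* by 0.44 (edgeR FDR = 0.0485). *Ednra*, the constrictor receptor of smooth muscle, was at 1.64 and 1.39 CPM and did not pass. *Edn2* was at 0 in every mouse.

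In the nitric oxide and cGMP list beyond *Nos3*, 0 genes passed higher and 3 lower of 9 tested (median log2 fold change -0.21). Of all genes tested, 10.8% were called higher, 13.5% lower and 24.4% either way. Both subunits of soluble guanylyl cyclase, the nitric oxide receptor of smooth muscle and pericytes, fell: *Gucy1b1* from 3.80 to 1.95 CPM (-0.96, edgeR FDR = 0.000125) and *Gucy1a1* from 12.2 to 6.36 CPM (-0.94, edgeR FDR = 0.000436). *Cav1*, which binds and restrains the enzyme that *Nos3* encodes, fell by 0.24 (edgeR FDR = 0.0180). Arterial and Notch genes gave 1 higher and 4 lower of 6 tested, beside 10.8% and 13.5% of all genes, with a median of -0.41. The connexins *Gja4* (-0.77, edgeR FDR = 0.00845) and *Gja5* (-0.70, edgeR FDR = 0.0147) and the arterial ligand *Efnb2* (-0.52, edgeR FDR = 0.00932) fell, with ranges that overlapped. *Notch1* fell by 0.29 (edgeR FDR = 0.0351), and *Notch4* rose by 0.25 (edgeR FDR = 0.0282), a direction that flipped to -0.045 and -0.065 when TPM were fitted with limma.

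**Figure D4:**
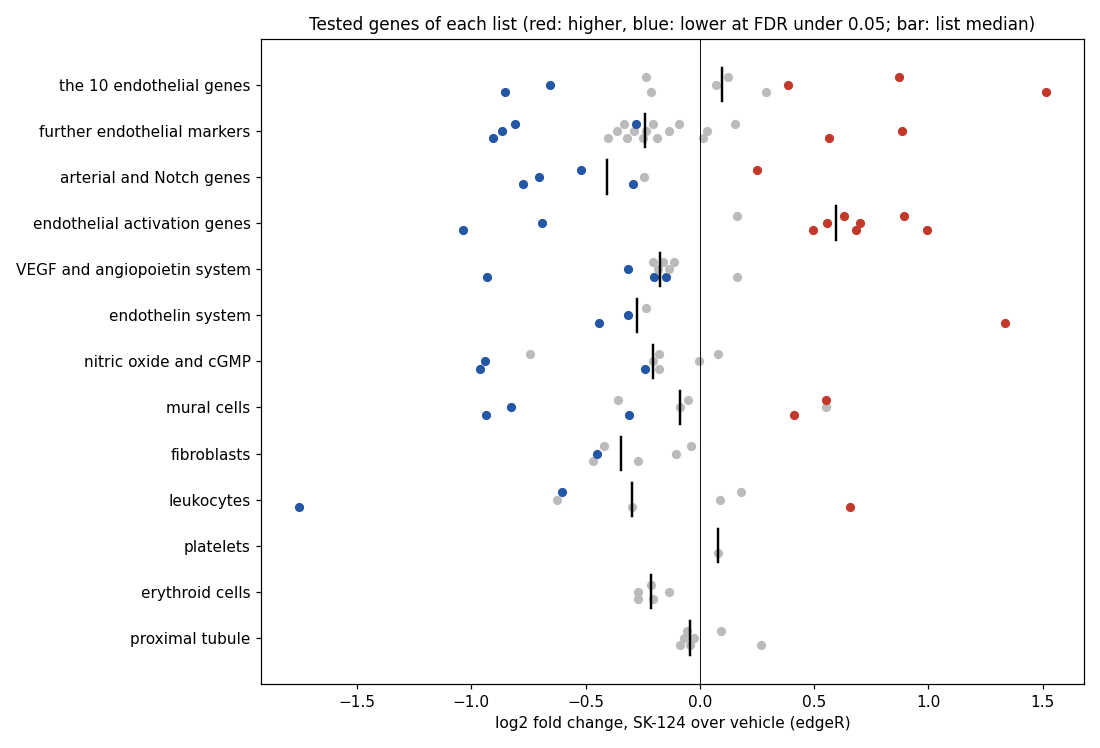
Log2 fold changes (x axis, SK-124 over vehicle, edgeR) of every tested gene of the 10 endothelial genes and of 12 of the 13 further lists (rows, the podocyte list not drawn), red where higher and blue where lower at an FDR under 0.05, grey otherwise, with a bar at each list's median. The activation list has its median at 0.59, the arterial and Notch list at -0.41, and the proximal tubule list at -0.04 with no gene that passed.

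Markers of cells that share the kidney with endothelium were counted beside these results, and their part in them was not tested. Their counts are to be read beside the 10.8% of all genes called higher, 13.5% lower and 24.4% either way. Mural cell markers had 2 higher and 3 lower of 9, with a summed level of 122.9 to 181 CPM in vehicle and 136 to 189 CPM in SK-124 mice. Among them *Pdgfrb*, the pericyte receptor for the *Pdgfb* product, fell from 25.4 to 13.3 CPM and *Des* from 12.03 to 6.79 CPM (edgeR FDR = 5.39e-05 and 7.17e-05), while the contractile genes *Tagln* and *Acta2* rose by 0.55 and 0.41 on the log2 scale (edgeR FDR = 0.00519 and 0.0452). Of the podocyte markers, *Podxl* stood at -0.31 and *Synpo* at -0.02 on the log2 scale, and neither passed (edgeR FDR = 0.0626 and 0.920). Fibroblast markers had 1 lower of 6 (*Col1a2*, -0.45, edgeR FDR = 0.0158), *Col1a1* standing at -0.47 (edgeR FDR = 0.0989), with sums of 124 to 196 and 89.2 to 172 CPM.

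Leukocyte markers had 1 higher (*Itgam*, 0.66) and 2 lower (*Cd79a*, -1.76, and *Cd68*, -0.60) of 7 tested, with sums of 51.8 to 64.1 CPM in vehicle and 54.2 to 65.2 CPM in SK-124 mice. Levels were low for *Cd79a*, with means of 1.10 CPM in vehicle and 0.324 CPM in SK-124 mice. They were also low for *Itgam*, at 0.744 and 1.18 CPM. No mouse held more than 33 counts of *Cd79a* or 25 of *Itgam*. Blood left in the vessels can be read from the erythroid genes, of which 0 of 5 passed, at sums of 457 to 1257 CPM in vehicle and 547 to 785 CPM in SK-124 mice. The most abundant, *Hba-a2* and *Hba-a1*, stood at -0.21 and -0.27 on the log2 scale (edgeR FDR = 0.566 and 0.445). Of 5 platelet markers only *Itga2b* was high enough to be tested (log2 fold change 0.08, edgeR FDR = 0.691). Proximal tubule markers had 0 calls of 7, with a median log2 fold change of -0.04, *Slc34a1* at -0.07 and *Lrp2* at -0.09 (edgeR FDR = 0.514 and 0.542). The summed level of the 10 endothelial genes themselves was 308 to 409 CPM in vehicle and 260 to 402 CPM in SK-124 mice, and that of the 20 further endothelial markers 279 to 362 and 228 to 339 CPM, with ranges that overlapped for both.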

How the data were processed

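RNA from 12 whole kidneys was sequenced by the authors, 1 library per mouse. Per the submitters' processing notes, FastQC, STAR 2.7.2b, RSEM 1.3.0 and DESeq2 were used with mm10; their settings and the use of strand are not given in the sources used here. Time from injection to collection is not stated for these libraries. The deposited tables hold expected counts, which the authors estimated with RSEM without normalization, and TPM, which the authors scaled with RSEM to effective gene length and a fixed total per library. RSEM gene lengths from the same tables were used for isoform mix. FPKM was not used.

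Identifiers were matched to GENCODE M21 (54349 of 55401 with version). Expected counts were rounded, scaled with TMM, filtered with filterByExpr and compared with edgeR 4.0.16 (glmQLFit, glmQLFTest; R 4.3.3) without a replicate block, with Benjamini-Hochberg adjustment over 14159 genes. The standard error is the absolute log2 fold change over the square root of F. CPM values are TMM-normalized. Exact permutation tests were two-sided, over 924 assignments. They used log2(CPM + 0.5) for single genes, log2 ratios of CPM or TPM without a pseudocount for the ratios to *Pecam1*, and bases for RSEM lengths. Lengths and TPM were fitted with limma 3.58.1.  No pair of libraries of a group looked duplicated (smallest chi-square per degree of freedom 4.41). Scripts were tested on simulated data.

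The members and gene lists were chosen with earlier results of these data known. All 10 members are given in full. From each further list up to 4 genes that passed are described, by size of change, and where fewer than 2 passed, the 2 most abundant; other names were added after values were seen. 1 gene of these lists is not reported here. Alternatives were DESeq2 1.42.0, RLE, library totals, other filters, log2(TPM + 1) and log2(TPM + 0.1), the replicate block and leaving out each mouse, and, added after seeing the data, fits within mice 1 to 3 or 4 to 6, a term for these trios, and leaving out either SK-124 trio.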

Additional observations from a re-analysis of the deposited data

Results flagged for a closer look

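In a check of each member in each group for a mouse far from the others, 20 groups of values were tested, of which chance gives about 1, and 2 stood out. *Apold1* in vehicle mouse 5 was at 3.23 CPM, where the other vehicle mice were at 0.756 to 1.47 CPM. The same mouse had the highest vehicle *Edn1*, at 1.80 CPM, which lay inside the spread of its group by the same check. *Nos3* in vehicle mouse 1 was at 2.67 CPM, below the 4.06 to 4.80 CPM of the other vehicle mice.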

How the results depend on the processing

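Across 25 alternative settings *Edn1* kept its call in all, *Apold1* in 24 (lost in mice 4 to 6 alone), *Kdr* and *Tek* in 24 each (lost in mice 1 to 3 alone), and *Nos3* in 11. *Pecam1* and *Flt1* passed in none, and their small differences changed sign under some. Mice 4 to 6 alone gave 1 member higher, and mice 1 to 3 alone gave 0 lower at an FDR under 0.05 by edgeR, the same fit in which *Kdr* and *Tek* stood at -0.57 and -0.44; fewer samples entered both. Leaving out each mouse in turn gave 2 to 4 members higher, 2 to 3 lower, 1320 to 1863 genes higher and 1633 to 2079 lower of all genes, 12 to 16 higher and 20 to 27 lower over the further lists, and 0 to 0 members with a changed length. Scaling moved the balance of all calls: with library totals 777 genes were higher and 3058 lower (20.3% of calls higher, against 44.5% with TMM; median of all genes -0.12), and with limma on log2(TPM + 1) or log2(TPM + 0.1) 500 and 498 were higher (19% of calls higher; medians -0.11 and -0.14). Mice 1 to 3 alone gave 759 higher and 617 lower, and leaving out SK-124 mice 1 to 3 or 4 to 6 gave 1267 or 1233 lower. Over the further lists both TPM fits gave 7 higher, mice 1 to 3 alone 9 higher and 12 lower, and leaving out SK-124 mice 1 to 3 gave 13 lower. *Notch4* reversed to -0.045 and -0.065 in the TPM fits. The causes were not tested. Over all genes, same-numbered mice deviated together little (r from -0.131 to 0.217). This does not settle pairing for the endothelial genes, most of which were higher in mice 4 to 6 in both groups. With the replicate block *Apold1* was at 1.58, *Edn1* 0.88, *Kdr* -0.85 and *Tek* -0.66, all still called, and *Nos3* lost its call (edgeR FDR = 0.0527). Depth limits *Apold1* and *Edn1*, which rest on 15 to 108 and 21 to 59 counts per mouse.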
